A study of Mus musculus with 6 samples.

Results

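IL11 and 9 genes of the cytokine pathway that signals through gp130 were followed across the 6 RNA-seq libraries of the series. The members are the ligand genes IL11 (ENSG00000095752), IL6 (ENSG00000136244) and LIF (ENSG00000128342). They also include the receptor genes IL11RA (ENSG00000137070), IL6R (ENSG00000160712), IL6ST (ENSG00000134352), LIFR (ENSG00000113594) and OSMR (ENSG00000145623). The transcription factor gene STAT3 (ENSG00000168610) and the inhibitor gene SOCS3 (ENSG00000184557) complete the set. They make up 10 of the 62492 identifiers in the deposited table. IL11 was chosen for its level: on the log2(FPKM + 1) scale it had the largest difference from control shared by both knockouts, so its values are given as a description with no test. The other 9 were taken for their place in the same pathway, with earlier results of these data known, and all 10 are accounted for.

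The cells are A375, a line established from a human melanoma. All groups received lentivirus with Cas9 and a guide RNA and were selected with puromycin at 10 µg/mL for collection 7 days later. The 2 control libraries carried guides against LacZ or Luciferase, which are not genes of these cells, 2 libraries carried guides against ABCE1, and 2 against YAE1. ABCE1 is the ATPase that splits ribosomes after termination, and YAE1 acts with LTO1 in loading iron-sulfur clusters onto ABCE1. The labels do not say whether libraries of 1 group came from separate cultures or guides, so a p-value here reflects the variation among these 6 libraries alone, part or all of which may be technical. The labels name no clone, edited and unedited cells cannot be told apart, and in bulk RNA fewer expressing cells cannot be told apart from less RNA per cell. The organism field reads mouse while the cell type field reads human. The second ABCE1 and YAE1 libraries have genotype entries ending in 2, so groups follow the titles. Knockout is used throughout as a name for the ABCE1 and YAE1 guide groups, and loss of either gene was not checked.

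Levels are FPKM, fragments scaled to gene length and library total, and can be compared between genes. Totals worked out from the values ran from 15713011 to 18399718 fragments per library. Over 12578 genes the log2 values of 2 libraries correlated at 0.992 to 0.994 within a group and at 0.942 to 0.980 between groups. The table gives no gene symbols, so the targeted genes, melanocytic and other cell type markers, and further pathway genes such as OSM and JAK1 were not analysed here, and the labels were not checked against the targeted genes.

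gp130, the product of IL6ST, is the shared signal-transducing chain of a cytokine family. IL-11 and IL-6 first bind their own alpha receptors, IL11RA and IL6R, and then bring gp130 chains together. LIF signals through a pair of LIFR and gp130, and oncostatin M through gp130 paired with OSMR or LIFR. The paired receptors activate JAK kinases and STAT3, and STAT3 turns on SOCS3, which binds gp130 and shuts the signal down. Many tumour cells, melanoma among them, can release IL-6 and other ligands of the family themselves.

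IL11 was among the mid-level genes of the set in the controls and the most abundant of the 10 in both knockouts. It stood at 4.46 and 4.87 FPKM in the control libraries, at 117 and 125 FPKM with ABCE1 guides, and at 68.0 and 60.0 FPKM with YAE1 guides. The 3 groups did not overlap, and both ABCE1 libraries were above both YAE1 libraries. The means were 4.67 ± 0.283 FPKM in controls, 121 ± 5.58 with ABCE1 guides and 64.0 ± 5.61 with YAE1 guides (SD, n = 2 each), so that the ABCE1 mean was 26.0 times and the YAE1 mean 13.7 times the control mean. Ranked by FPKM among all identifiers, IL11 was at place 7155 and 6861 in the controls, 245 and 227 with ABCE1 guides and 541 and 611 with YAE1 guides. The values rest on 220 and 229.5 fragments in the controls and on 2744 to 5928.5 in the knockouts. Counting alone gives an error of at most 6.74% per library, but the libraries of each knockout lay further apart than their counting intervals. They differed 1.07-fold with ABCE1 guides and 1.13-fold with YAE1 guides. Fragment numbers were recovered in steps of 0.5.

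IL6, the founding member of the family, rose in both knockouts from a level close to 0. It was at 0.0788 and 0.110 FPKM in the controls, at 13.3 and 6.95 FPKM with ABCE1 guides, and at 3.71 and 2.61 FPKM with YAE1 guides. No 2 groups overlapped, and the order of the groups, ABCE1 above YAE1 above control, was that of IL11. On log2(FPKM + 1), the scale used for every test here, which understates the change of low genes, the change was 3.28 ± 0.26 with ABCE1 guides (SE, limma adjusted p = 0.00012) and 1.91 ± 0.26 with YAE1 guides (limma adjusted p = 0.0014). The control values rest on 3 and 4 fragments, against 432 and 254.5 with ABCE1 guides and 129 and 92 with YAE1 guides. The ratio of pooled fragments per total was 106 for ABCE1 guides (exact 95% counting interval 51.1 to 264) and 33.6 for YAE1 guides (16.0 to 84.4), and these intervals cover counting error only. The same ratios for IL11 were 26.0 and 13.7, below those of IL6, although IL11 leads on the log2(FPKM + 1) scale. With a pseudocount of 0.1 the log2 change of IL6 was 5.65 and 4.05, against 4.67 and 3.75 for IL11. IL6 passed the filter of a mean of 1 FPKM only through its knockout libraries, so a gene of its kind had to differ to be tested at all. The 2 ABCE1 libraries differed 1.91-fold, more than counting error allows, since their 95% counting intervals were 12.1 to 14.6 and 6.14 to 7.88 FPKM.

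LIF, the ligand that signals through LIFR, rose less and by a like amount in both knockouts. It was at 3.84 and 4.69 FPKM in the controls, 8.11 and 6.44 FPKM with ABCE1 guides and 7.03 and 6.84 FPKM with YAE1 guides. Every knockout library was above both controls. The log2 change was 0.65 ± 0.12 with ABCE1 guides (SE, limma adjusted p = 0.0031) and 0.60 ± 0.12 with YAE1 guides (limma adjusted p = 0.0055). Summed over the 3 ligands, the level was 8.38 and 9.66 FPKM in the controls, 138.7 and 138.6 with ABCE1 guides and 78.7 and 69.5 with YAE1 guides. IL11 made up 53.3% and 50.4% of this sum in the controls and LIF nearly all the rest, while in the knockouts IL11 made up 84.6% to 90.3%. As IL11 was chosen for its rise in these libraries, the larger sum and its larger share largely follow from that choice.

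**Figure D1:**
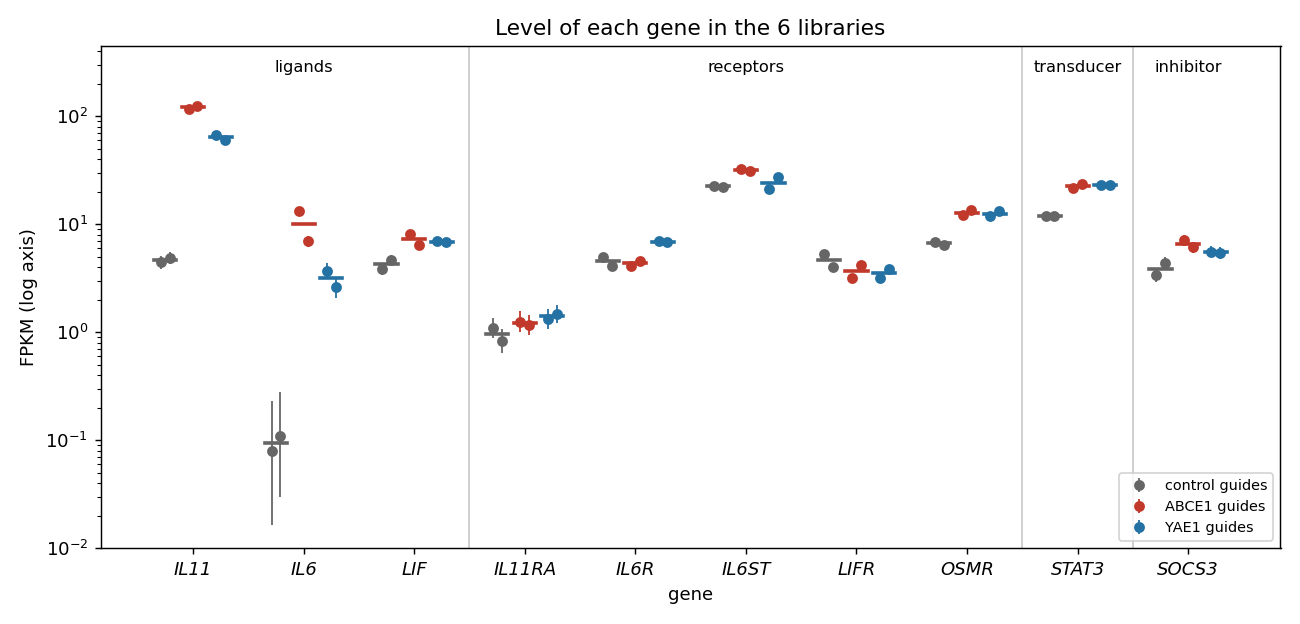
FPKM (log axis) of the 10 genes, grouped by role, in each library: points are single libraries, vertical lines their 95% counting intervals and horizontal bars group means of 2 libraries. IL11 is at 4.46 and 4.87 FPKM in the controls and at 60.0 to 125 FPKM in the knockouts, and IL6 moves from 0.0788 and 0.110 to between 2.61 and 13.3 FPKM while OSMR and STAT3 sit nearly 2-fold above control in both knockouts.

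The alpha receptor genes IL11RA and IL6R changed less than their ligand genes. For IL11RA this follows from the choice of IL11 as the largest shared rise. IL11RA was the lowest receptor in all 3 groups, at 1.10 and 0.835 FPKM in the controls, 1.26 and 1.17 with ABCE1 guides and 1.33 and 1.48 with YAE1 guides. Its knockout libraries were all above the controls, yet neither change passed the test (0.17 ± 0.11, limma adjusted p = 0.22, and 0.29 ± 0.11, limma adjusted p = 0.062), at 63 to 108 fragments per library and a counting error of 9.62% to 12.6%. With voom on the recovered fragments the YAE1 change did pass (0.54, limma adjusted p = 0.020), while the 2 changes were 0.072 and 0.19 without control replicate 2 and 0.27 and 0.39 without control replicate 1. The control mean of IL11RA was 0.970 FPKM, below the filter of 1 FPKM, which IL11RA passed through its knockout libraries.

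IL6R rose with YAE1 guides and was not called with ABCE1 guides. It was at 5.04 and 4.09 FPKM in the controls, 4.08 and 4.63 with ABCE1 guides and 7.03 and 6.82 with YAE1 guides. The ABCE1 libraries overlapped the controls, and both YAE1 libraries were above all 4 others. The log2 change was 0.52 ± 0.10 with YAE1 guides (SE, limma adjusted p = 0.0048) and -0.05 ± 0.10 with ABCE1 guides (limma adjusted p = 0.68, 95% interval -0.28 to 0.18).

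IL6ST, the gene of gp130 itself, was the most abundant receptor in every group and rose with ABCE1 guides. It was at 22.8 and 22.3 FPKM in the controls, 32.9 and 30.9 with ABCE1 guides and 21.1 and 27.3 with YAE1 guides. The ABCE1 libraries were above all others (log2 change 0.48 ± 0.11, limma adjusted p = 0.0083), a call lost with no filter on low genes (limma adjusted p = 0.054). The 2 YAE1 libraries lay on either side of the controls and differed by 1.29-fold, beyond their counting intervals. Their mean was not called (0.09 ± 0.11, limma adjusted p = 0.53), but without YAE1 replicate 1 the change was 0.26 and passed (limma adjusted p = 0.013), while without YAE1 replicate 2 it was -0.09 (limma adjusted p = 0.21).

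OSMR, the chain that pairs with gp130 for oncostatin M, rose nearly 2-fold in both knockouts. It was at 6.81 and 6.50 FPKM in the controls, 12.1 and 13.5 with ABCE1 guides and 11.9 and 13.3 with YAE1 guides, with no overlap between knockouts and controls. The log2 change was 0.85 ± 0.07 with ABCE1 guides (SE, limma adjusted p = 0.00017) and 0.82 ± 0.07 with YAE1 guides (limma adjusted p = 0.00027).

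LIFR, the chain that pairs with gp130 for LIF, had lower means in both knockouts and was called in neither. It was at 5.36 and 4.02 FPKM in the controls, 3.20 and 4.25 with ABCE1 guides and 3.17 and 3.88 with YAE1 guides. The ABCE1 libraries overlapped the controls, while both YAE1 libraries were below both controls. The log2 change was -0.27 ± 0.16 (SE, limma adjusted p = 0.18) and -0.32 ± 0.16 (limma adjusted p = 0.12), and voom called the YAE1 change (-0.41, limma adjusted p = 0.022). The changes were -0.097 and -0.15 without control replicate 1, the higher of the controls, and -0.44 and -0.50 without control replicate 2. LIFR had the libraries of each group further apart than their counting intervals in all 3 groups, by 1.23-fold to 1.33-fold.

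STAT3, the transcription factor that carries the gp130 signal to the nucleus, rose nearly 2-fold in both knockouts with little spread. It was at 12.0 and 11.9 FPKM in the controls, 21.8 and 23.5 with ABCE1 guides and 23.2 in both YAE1 libraries. The log2 change was 0.87 ± 0.05 with ABCE1 guides (SE, limma adjusted p = 4.1e-05) and 0.90 ± 0.05 with YAE1 guides (limma adjusted p = 5.8e-05). These values describe STAT3 transcript, and the phosphorylated protein was not measured.

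SOCS3, the feedback inhibitor whose gene STAT3 activates, rose in both knockouts. It was at 3.39 and 4.36 FPKM in the controls, 7.11 and 6.16 with ABCE1 guides and 5.60 and 5.39 with YAE1 guides, and no knockout library overlapped the controls. The log2 change was 0.65 ± 0.11 with ABCE1 guides (SE, limma adjusted p = 0.0024) and 0.42 ± 0.11 with YAE1 guides (limma adjusted p = 0.017). The YAE1 call was lost without control replicate 1 (0.28, limma adjusted p = 0.080), where the change shrank by over 1.5 times, without YAE1 replicate 1 (0.40, limma adjusted p = 0.071), with quantile normalization (0.31, limma adjusted p = 0.058) and when low genes were not filtered (limma adjusted p = 0.088).

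Of the 9 genes other than IL11, 6 were called higher with ABCE1 guides (IL6, LIF, IL6ST, OSMR, STAT3 and SOCS3) and 0 lower, where 37.5% of all 12578 tested genes were called higher and 20.4% lower. With YAE1 guides 6 were called higher (IL6, LIF, IL6R, OSMR, STAT3 and SOCS3) and 0 lower, where 34.2% of all tested genes were called higher and 17.6% lower. Both comparisons use the same 2 control libraries. The 9 had a median log2 change of 0.65 for ABCE1 and 0.52 for YAE1, beside 0.10 over all tested genes in both comparisons. IL6 and IL11RA passed the filter through the groups where they were higher, so neither the counts nor the medians are support for a shared change of the pathway.

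The split of calls over all genes depends on scaling. On the authors' scale 64.8% of calls were higher with ABCE1 guides and 66.0% with YAE1 guides, and with each library centred on its median gene 45.5% and 49.1%. With quantile normalization the shares were 49.0% and 52.2%. Centring moved the median of all genes by -0.14 with ABCE1 guides and -0.10 with YAE1 guides. Centring left the count of the 9 at 6 in both comparisons. Of all 12578 genes, centring called 3271 higher and 3915 lower with ABCE1 guides, and 3014 and 3124 with YAE1 guides. The next values are main-fit log2 changes less the median change of all genes, and are not those of the centred fit. Relative to that median, STAT3 changed by 0.77 and 0.81 and OSMR by 0.75 and 0.73 with ABCE1 and YAE1 guides. LIF changed by 0.55 and 0.50, SOCS3 by 0.55 and 0.33 and IL6 by 3.19 and 1.82. Relative to the same median, IL6ST was at 0.38 with ABCE1 guides and at -0.01 with YAE1 guides. By size of change on the log2(FPKM + 1) scale, which lowers the place of a gene as low in the controls as IL6, IL6 was at place 12 of 12578 with ABCE1 guides and place 24 with YAE1 guides, STAT3 at 777 and 408, and OSMR at 812 and 533.

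**Figure D2:**
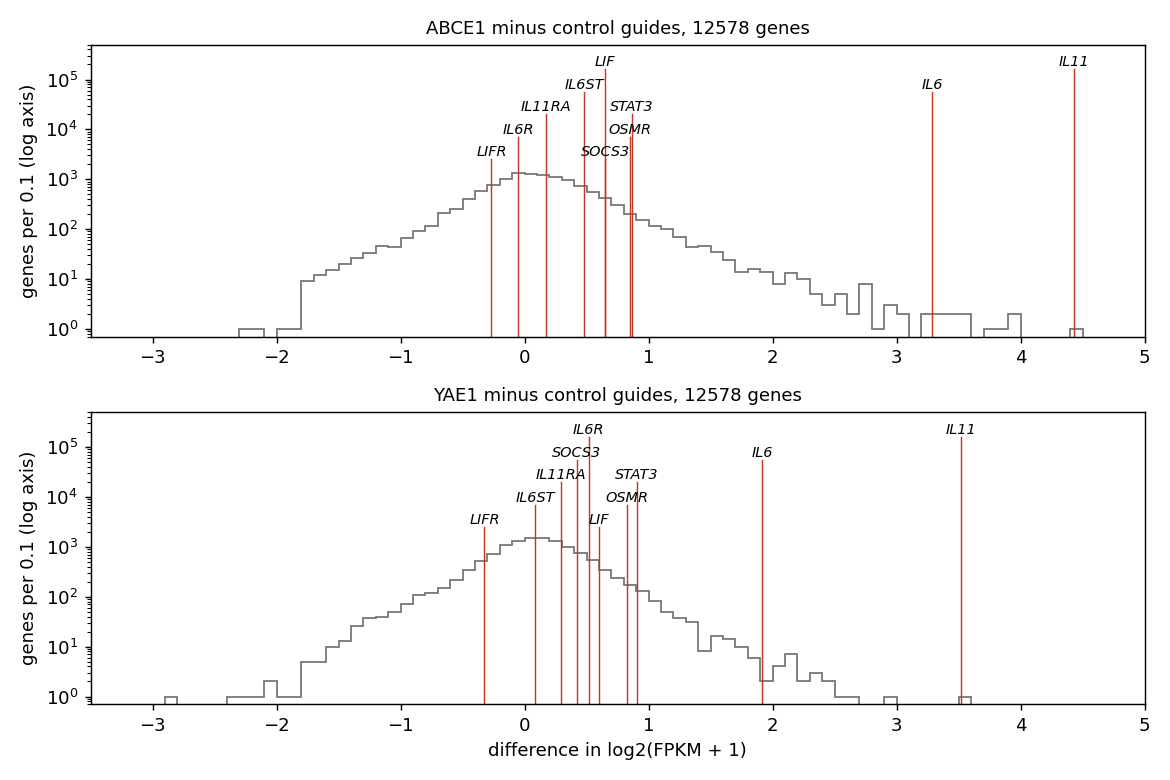
Number of genes per 0.1 (log axis) by difference in log2(FPKM + 1) for all 12578 tested genes, with the 10 genes of the pathway as vertical lines, for ABCE1 minus control (top) and YAE1 minus control (bottom). IL11, at 4.43 and 3.52, is at the far right of both panels, IL6 is at 3.28 and 1.91, and the other 8 lie within the body of the distribution.

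In the direct comparison of the knockouts 3 of the 9 tested genes were called, 1 higher and 2 lower with YAE1 guides, a share near that of all tested genes, of which 15.3% were called higher and 18.7% lower. LIF, called higher in both knockouts, was not among them. The IL11 mean with YAE1 guides was 0.528 of that with ABCE1 guides, a description, since IL11 was chosen on these libraries. IL6R was higher and IL6 and IL6ST were lower with YAE1 guides. The IL6 mean was 0.312 of that with ABCE1 guides (log2 difference -1.37 ± 0.26, SE, limma adjusted p = 0.011). Leaving out ABCE1 replicate 1, the higher of that pair, gave -0.95 (limma adjusted p = 0.032). The call was lost when low genes were not filtered (limma adjusted p = 0.074). IL6R was higher by 0.57 ± 0.10 (limma adjusted p = 0.0077), a call kept in all 14 alternatives.

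For IL6ST the YAE1 minus ABCE1 difference was -0.40 ± 0.11 (SE, limma adjusted p = 0.032). The call was lost in 6 alternatives: without ABCE1 replicate 1 (limma adjusted p = 0.14), without ABCE1 replicate 2 (limma adjusted p = 0.088), without either control library (limma adjusted p = 0.055 each), in a fit of the 4 libraries compared (limma adjusted p = 0.056) and when low genes were not filtered (limma adjusted p = 0.15). Without YAE1 replicate 1 the difference shrank to -0.22 (limma adjusted p = 0.040).

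The other 6 were not called between the knockouts. For STAT3 the difference was 0.04 with a 95% interval of -0.09 to 0.16, and for OSMR -0.02 with -0.20 to 0.16, so a difference as large as their changes from control lies outside the interval. The intervals were wider for LIF (-0.33 to 0.22), IL11RA (-0.14 to 0.38), LIFR (-0.43 to 0.31) and SOCS3 (-0.49 to 0.03), where SOCS3 had a difference of -0.23 and both YAE1 libraries below both ABCE1 libraries. Without ABCE1 replicate 1 that difference was -0.14.

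**Figure D3:**
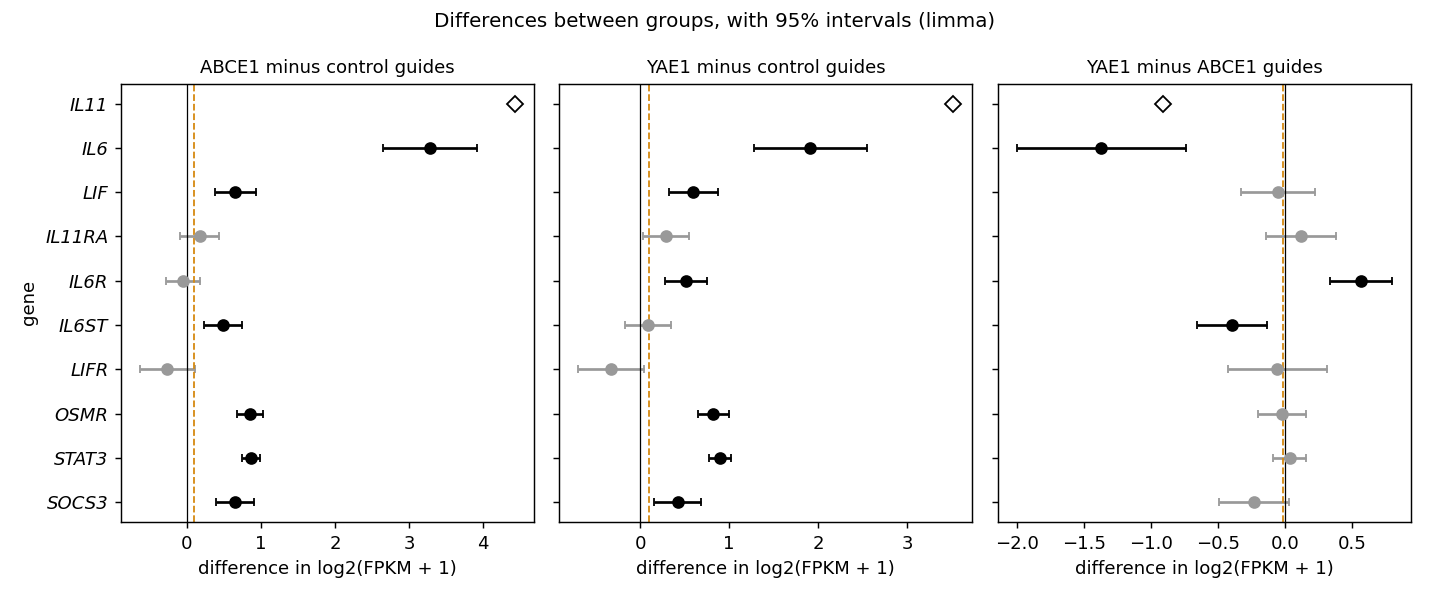
Difference in log2(FPKM + 1) between groups for each gene, with 95% limma intervals. Black points have an adjusted p under 0.05, grey points do not, the open diamond is IL11, given with no test, and the dashed line is the median of all 12578 genes. STAT3 and OSMR lie between 0.82 and 0.90 in both comparisons with control and near 0 between the knockouts, whereas IL6 is at -1.37 for YAE1 minus ABCE1.

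The order of the 10 levels changed with the guides. In the controls it was IL6ST, STAT3, OSMR, then LIFR, IL11, IL6R, LIF and SOCS3, neighbours among these last 5 overlapping in their libraries, then IL11RA and IL6. With ABCE1 guides IL11 was first, followed by IL6ST and STAT3, each above the next in both libraries. OSMR and IL6 overlapped, as did IL6 and LIF, LIF and SOCS3, and IL6R and LIFR, and IL11RA was last. With YAE1 guides IL11 was again first, IL6ST and STAT3 overlapped in the next places, LIF and IL6R overlapped, and so did LIFR and IL6, with IL11RA last.

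Ratios within a library, which need no scaling between libraries, set the ligands against their receptors, as a description with no test. IL11 was at 4.04 and 5.82 times the level of its receptor gene IL11RA in the controls, 93.4 and 107 times with ABCE1 guides and 51.0 and 40.6 times with YAE1 guides. Against IL6ST, IL11 was at 0.196 and 0.218 in the controls and between 2.20 and 4.04 in the knockouts. As IL11 was chosen for its rise, the higher ratios with IL11 in the knockouts largely follow from that choice. IL6 stayed below IL6R in the controls (0.0156 and 0.0269) and with YAE1 guides (0.527 and 0.382) and was above it with ABCE1 guides (3.25 and 1.50). Between the chains that pair with gp130, OSMR was at 1.27 and 1.62 times LIFR in the controls, 3.79 and 3.17 times with ABCE1 guides and 3.75 and 3.42 times with YAE1 guides. SOCS3 over STAT3 was 0.282 and 0.366 in the controls, 0.327 and 0.262 with ABCE1 guides and 0.241 and 0.232 with YAE1 guides, so the ABCE1 libraries overlapped the controls and the YAE1 libraries were below them.

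**Figure D4:**
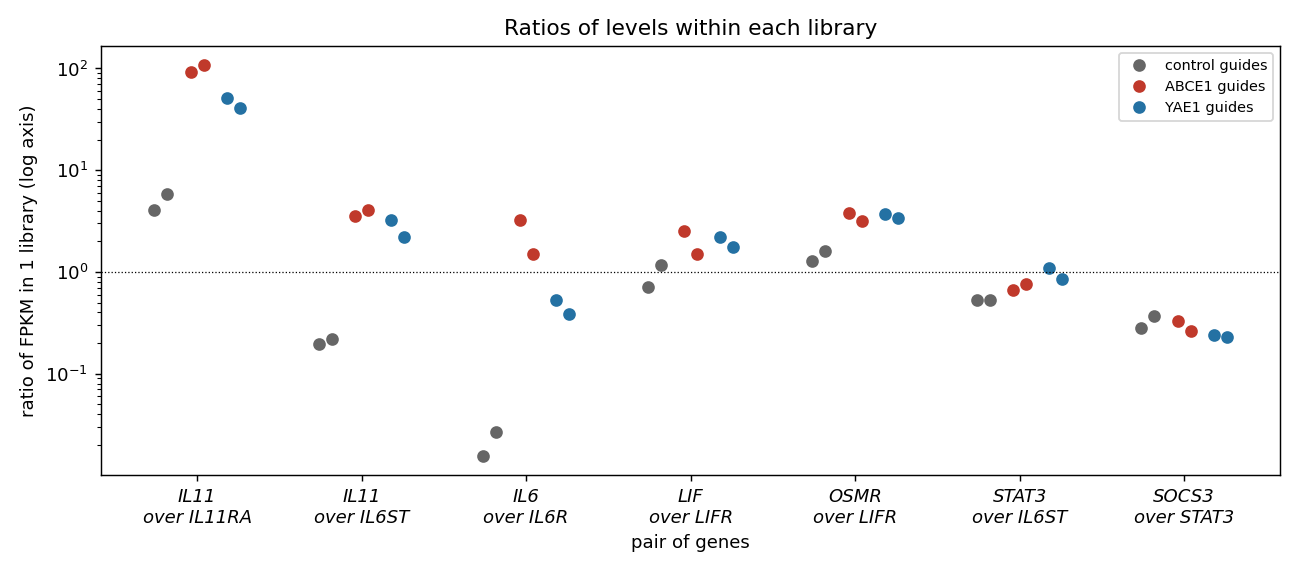
Ratio of the FPKM of 2 genes within each library (log axis), with 1 point per library and the dotted line at equal levels. IL11 over IL6ST crosses from 0.196 and 0.218 in the controls to above 2 in all 4 knockout libraries, and IL6 over IL6R is above 1 in the ABCE1 libraries only.

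The genes most like IL11 across the 6 libraries were looked for by the distance between log2 profiles, each set to 0 at its own control mean. The nearest of the 12577 others was ENSG00000120738, at a distance of 1.66, with 5.54 and 6.85 FPKM in the controls, 96.2 and 88.8 with ABCE1 guides and 45.6 and 39.6 with YAE1 guides. The second was ENSG00000162772, at a distance of 1.76, with 2.73 and 3.46 FPKM in the controls, 63.9 and 59.9 with ABCE1 guides and 22.4 and 18.2 with YAE1 guides. Both had the group order of IL11 and IL6, with ABCE1 above YAE1 above control and no overlap. They were picked for likeness to IL11 over these same libraries, so the shared order follows from the choice and supports nothing further. The deposited table does not pair these identifiers with gene symbols.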

How the data were processed

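The authors deposited 1 table of FPKM values, a column per library and 62492 Ensembl identifiers. The build is GRCh37 per the submitters' processing notes, and no aligner, counting program or annotation release is given in the sources used here. The reference tables used were for mouse and matched 0 identifiers, so only the 10 members carry names, from the definition of the gene set. Members and lists were chosen with earlier results of these data known. Genes averaging at least 1 FPKM were kept (12578, with all 10 members). log2(FPKM + 1) was tested with limma 3.58.1 in R 4.3.3 (all 6 libraries in 1 fit, 3 residual degrees of freedom, eBayes with trend). Adjustment was Benjamini-Hochberg over all genes kept, with a threshold of 0.05. A run on simulated data came first, and its results are not given here. Fragment numbers were recovered from the whole steps (0.5 fragments) of the values, and may be off by 1 factor per gene. Such a factor leaves ratios as they are but would change the fragment numbers, counting errors and counting intervals given here. The 95% counting intervals per library are exact Poisson and cover counting only. The named genes are the 10 members and, with no symbols at hand, the 2 identifiers nearest to IL11. Alternatives were pseudocount 0.1, no filter, a mean of at least 5 FPKM, median centring, quantile normalization, voom, the 4 libraries compared, a replicate block and leaving out each library. Scripts used Python 3.11.15.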

Additional observations from a re-analysis of the deposited data

Results flagged for a closer look

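In the direct test (limma, YAE1 minus ABCE1 guides) 3 of 9 genes were called, near the share of all tested genes, of which 15.3% were called higher and 18.7% lower. IL6 was further above control with ABCE1 guides (difference -1.37, limma adjusted p = 0.011). With low genes unfiltered this was not called (limma adjusted p = 0.074). IL6R was higher with YAE1 guides (difference 0.57, limma adjusted p = 0.0077). IL6ST was higher with ABCE1 guides (difference -0.40, limma adjusted p = 0.032). In 6 of 14 alternatives this was not called (limma adjusted p up to 0.15). With 2 libraries per group, single outlying samples were not looked for.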

How the results depend on the processing

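Of the 15 calls of genes other than IL11 over the 3 comparisons, 11 were kept under every alternative run, and 4 were lost under at least 1: IL6ST with ABCE1 guides, SOCS3 with YAE1 guides, and IL6 and IL6ST between the knockouts. None of the 15 changed direction in these alternatives. The 11 kept calls include IL6 with ABCE1 and with YAE1 guides, a gene that passed the filter only through its knockout libraries. How many calls of all genes were kept was not counted, so the 11 have no share to be set beside. Fits without 1 library leave 1 library in a group, so counts of calls are not compared for them. Between the knockouts the number of the 9 genes called was 1 with no filter (IL6R) against 3. Over all genes, 907 of 38269 were then called higher and 1184 lower, against 1928 and 2351 of 12578. With voom the number of the 9 called with YAE1 guides was 8 against 6, adding IL11RA as higher and LIFR as lower. Over all 12578 genes voom called 4669 higher and 2398 lower, against 4303 and 2214. With a minimum mean of 5 FPKM, IL6, IL11RA and LIFR were not tested. The log2 difference of IL11 from control with ABCE1 guides was 4.43, and 4.67 with a pseudocount of 0.1, 4.29 after centring and 4.70 with voom; with YAE1 guides it was 3.52, and 3.75 with a pseudocount of 0.1 and 3.78 with voom. Without 1 library it ran from 4.38 to 4.48 and from 3.43 to 3.61, and between the knockouts from -1.001 to -0.82.

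Signs changed only for differences that were not called. With quantile normalization IL11RA with ABCE1 guides was -0.038, and OSMR between the knockouts 0.033. With centring OSMR between the knockouts was 0.018 and IL6ST with YAE1 guides -0.011. Without 1 library the range crossed 0 for IL6R with ABCE1 guides (-0.17 to 0.072), for IL6ST with YAE1 guides (-0.091 to 0.26), and between the knockouts for LIF (-0.20 to 0.093), LIFR (-0.22 to 0.10), OSMR (-0.099 to 0.051) and STAT3 (-0.017 to 0.090). The cause of these shifts was not tested. As a replicate block the title numbers left the counts at 6, 6 and 3. Over all 12578 genes, that fit called 4579 higher and 2479 lower with ABCE1 guides, against 4715 and 2563 in the main fit. With YAE1 guides the block fit called 4130 higher and 2134 lower, against 4303 and 2214. Between the knockouts the block fit called 1675 higher and 2103 lower, against 1928 and 2351. Deviations of same-numbered libraries correlated at -0.05 to -0.01 over genes, so no shared shift in expression was seen. Whether same-numbered libraries were handled together cannot be told from this. Depth limits IL6 in the controls (3 and 4 fragments) and IL11RA (63 to 108).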
